A study of Mus musculus with 15 samples.

Results

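The report describes 6 genes of the Maf, Nfe2 and Bach1 group, which were chosen by name: Maf, Mafk, Mafg, Nfe2, Nfe2l2 and Bach1. They are 6 of the 22350 protein-coding genes of chromosomes 1 to 19 and X in the mm9 annotation. The cells were C10, a derivative of the mouse pre-B cell line HAFTL that carries C/EBPαER-GFP, a C/EBPα fused to an estrogen receptor part and marked by GFP, at every time including 0 h. Estradiol moves this protein into the nucleus, and the cells take on a macrophage-like form. According to the labels, induced cells received 100 nM β-estradiol, with IL-3 and CSF-1 both at 10 nM, while control cells received 0.1% ethanol. The study's methods name a micromolar dose of estradiol in place of this nanomolar one, and which was used cannot be told here. The labels do not say whether the 0 h cells were grown with IL-3 and CSF-1. The line is a derived culture with a transgene, and only 1 such line was used here. H3K27Ac, which marks active promoters and enhancers, H3K4Me1, which marks poised and active enhancers, and H3K27Me3, which marks repressed chromatin, were each mapped by ChIP-seq at 0, 3, 12, 24 and 48 h post-induction (hpi). Each mark and time had 1 library, so no difference could be set against replicate error and no test was run.

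The 6 proteins belong to the basic leucine zipper family. The small Maf proteins (Mafk and Mafg) have a DNA-binding part but no activation domain and act as partners. They pair with Nfe2 (the p45 subunit of the factor that drives globin and platelet genes), with Nfe2l2 (Nrf2, the activator of antioxidant genes) and with Bach1 (a haem-sensing repressor of the same genes). Maf (c-Maf) is a large Maf protein with its own activation domain, known for IL-10 and complement genes in tissue macrophages. The pairs bind Maf recognition and antioxidant response elements, which hold an AP-1-like core.

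Values below are tags in 3 kb, counted at equal depth within each mark. A tag is the position of 1 uniquely aligned 36 bp read. A 3 kb window that held a tag in any of the 15 libraries was taken as mappable, which gave 831346 windows. Their mean was 18.3 tags for H3K27Ac, 13.1 for H3K4Me1 and 18.4 for H3K27Me3, and a level is the tags over this mean. No input library was among the 15. A window was called enriched from 34, 27 and 34 tags, where the Poisson tail over the mean falls below 0.001. A change is log2((later + 5)/(earlier + 5)), and it was called from 1 or -1, that is 2-fold. Intervals are exact 95% intervals of the tags or of their ratio and cover counting error only. The ratio is taken without the 5 added tags, so at low counts its interval is not centred on the printed change. A start is the 5′ end of the gene unless a transcript is named, and the window is centred on it. Total depth is only 1 way to scale. A scaling on bins enriched at all 5 times moves a 48 h change by 0.42 in H3K27Ac and 0.07 in H3K4Me1, and a scaling on background bins, enriched at no time, moves it by -0.09 and 0.53. These shifts are for well-marked starts, and starts with few tags move less because 5 tags are added. At 24 hpi the background bins move H3K27Ac by 0.54, and at 12 hpi they move H3K4Me1 by 0.62. Where a scaling changes which of the 6 starts were called, its counts are given.

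The libraries held 11.04 to 31.56 M deposited tags. As a check on the cells, H3K27Ac at the starts of 7 pre-B markers was at least 2-fold lower at 48 hpi in 6 and higher in 0, and the summed tags went from 8633 to 2942. For 7 macrophage markers it was higher in 6 and lower in 0, and the sum went from 282 to 2759. Of 7 erythroid and megakaryocyte markers 0 rose and 1 fell (Pf4), with summed tags of 392 and 207. Gata1 had 1 and 2 tags, but Klf1 had 103 and 92 and Pf4 had 200 and 51. Of 5 T cell markers 0 rose and 1 fell (Tcf7), with summed tags of 162 and 80. Cd3e had 5 and 6 tags, but Tcf7 had 118 and 41. Over all starts 5.33% were higher and 9.32% lower. With scaling on enriched bins 5 pre-B markers were lower, beside 4.93% of all starts. There 1 erythroid or megakaryocyte marker was higher, beside 9.5%. With background scaling 7 pre-B markers were lower, beside 10.4%. In bulk chromatin, fewer marked cells and less mark per cell cannot be told apart. The 24 h H3K27Ac library had 77.5% of its tags in enriched 1 kb bins, against 62.7% to 69.1% in the other H3K27Ac libraries.

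The sequences show the starts that differed most in marking. They are 250 bases before to 50 bases after the start, read from the mm9 genome in the direction of the gene. Capitals mark exact matches on either strand to C/EBP (TTGCNNAA), PU.1 (GAGGAAG), AP-1 (TGAGTCA) or the Maf and Nfe2 element core (TGACNNNGC). A copy of TGACTCA followed by GC counts under both of the last motifs. The start of Maf was not enriched in any mark at any time (chr8:118231645-118231944, minus strand). The start of Nfe2 gained the most H3K27Ac of the 6 within 3 h (chr15:103088785-103089084, minus strand). The start of Nfe2l2 had the highest H3K27Ac throughout (chr2:75542649-75542948, minus strand), and the start of Mafg rose short of 2-fold (chr11:120494865-120495164, minus strand).
Maf start: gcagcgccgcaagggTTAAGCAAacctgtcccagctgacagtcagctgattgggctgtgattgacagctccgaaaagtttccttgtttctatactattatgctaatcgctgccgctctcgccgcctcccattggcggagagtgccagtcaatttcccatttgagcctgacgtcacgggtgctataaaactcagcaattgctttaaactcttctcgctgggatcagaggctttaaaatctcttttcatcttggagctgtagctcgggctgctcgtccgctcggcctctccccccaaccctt
Nfe2 start: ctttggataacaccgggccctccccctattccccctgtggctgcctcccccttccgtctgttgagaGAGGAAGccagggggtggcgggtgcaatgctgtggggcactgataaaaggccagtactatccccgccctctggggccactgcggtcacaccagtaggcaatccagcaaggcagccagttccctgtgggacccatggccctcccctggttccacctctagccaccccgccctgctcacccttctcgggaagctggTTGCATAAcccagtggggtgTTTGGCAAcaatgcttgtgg
Nfe2l2 start: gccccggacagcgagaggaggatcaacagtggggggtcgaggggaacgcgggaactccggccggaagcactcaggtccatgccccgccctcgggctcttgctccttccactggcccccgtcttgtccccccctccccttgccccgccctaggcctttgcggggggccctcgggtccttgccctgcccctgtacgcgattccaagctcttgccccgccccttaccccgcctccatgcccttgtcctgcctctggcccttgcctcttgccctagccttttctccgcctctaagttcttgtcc
Mafg start: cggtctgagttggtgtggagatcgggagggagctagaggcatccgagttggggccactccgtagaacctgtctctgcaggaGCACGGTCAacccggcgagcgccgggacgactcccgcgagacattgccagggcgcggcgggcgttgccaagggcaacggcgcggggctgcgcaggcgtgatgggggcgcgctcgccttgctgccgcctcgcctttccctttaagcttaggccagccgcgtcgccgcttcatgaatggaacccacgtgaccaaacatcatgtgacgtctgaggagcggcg

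The Nfe2 start held 2 C/EBP matches, at bases 11 and 31 counted from the start as 1, and 1 PU.1 match at base -184. A C/EBP match was found in 10.3% of 22345 promoters of this length, and a PU.1 match in 13.5%. The unmarked Maf start also held a C/EBP match, at base -235. The core TGACNNNGC, found in 12.5% of promoters, was present 1 time each at the starts of Mafk and Mafg. The starts of Nfe2l2 and Bach1 held none of the 4 motifs, and AP-1 (4.42% of promoters) was found at none of the 6 starts. The starts of Mafk, Mafg, Nfe2l2 and Bach1 were GC-rich, with 66.7% to 70.0% GC and 18 to 34 CpG, against medians of 55.3% and 11 over all promoters. Maf had 52.3% GC with 15 CpG, and Nfe2 had 62.3% GC with 7 CpG, the fewest of the 6.

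At the start of Nfe2l2 (chromosome 2, 75513570 to 75542698, minus strand) H3K27Ac had 1220, 1478, 1047, 1141 and 929 tags at 0, 3, 12, 24 and 48 hpi. These are the highest values among the 6 genes at each time, and at 0 hpi the start stood at percentile 99.7 of all starts. The change from 0 to 48 hpi was -0.39 (-0.52 to -0.27), which became 0.02 when libraries were scaled on bins enriched at all 5 times. A noncoding gene, E030042O20Rik, has an exon in the same promoter, so its mark cannot be told apart from that of Nfe2l2.

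The start of Mafg (chromosome 11, 120486431 to 120494914, minus strand) had 367, 649, 596, 694 and 656 H3K27Ac tags. All 4 later values lay above 0 hpi with intervals that did not overlap it, and the change at 48 hpi was 0.83 (0.65 to 1.03), short of 2-fold but 1.24 with scaling on enriched bins. At 24 hpi it was 0.91 (0.73 to 1.11), or 1.45 with background scaling. The window mattered as well, since a 6 kb window put the change past 2-fold at all 4 later times (1.13 at 3 hpi and 1.34 at 48 hpi), and a 2 kb window gave 0.34 to 0.58. The 6 kb window takes in the internal Mafg-004 start, 2803 bp downstream, where H3K27Ac went from 343 to 1443 tags by 48 hpi. On the upstream side, the 3 kb window centred at -1587 bp had 56, 42, 73, 79 and 66 tags. An exon of another annotated gene, Gm17586, lies in the same Mafg promoter. The start of Mafk (chromosome 5, 140267467 to 140278607, plus strand) had 325, 351, 263, 333 and 290 tags. Its change at 48 hpi was -0.16 (-0.40 to 0.07), an interval that includes 0, and it was 0.25 with the scaling on enriched bins. So the 2 small Maf genes had like levels at 0 hpi, with overlapping intervals, and Mafg stood above Mafk at every later time.

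The start of Nfe2 (chromosome 15, 103078643 to 103088834, minus strand) had 354, 781, 772, 909 and 577 H3K27Ac tags. H3K27Ac there had risen by 3 hpi and was highest at 24 hpi. Against 0 hpi the change was 1.13 (0.96 to 1.33) at 3 hpi, 1.11 (0.94 to 1.31) at 12 hpi, 1.35 (1.18 to 1.54) at 24 hpi and 0.70 (0.51 to 0.90) at 48 hpi. With scaling on background bins the changes at 3, 12 and 24 hpi were 0.85, 0.98 and 1.89, the first and second of them below 2-fold. In a 2 kb window the 12 h change was 0.97, and with scaling on enriched bins the 48 h change was 1.11. From 24 to 48 hpi the change was -0.65 (-0.81 to -0.50), and it stayed below 0 with both other scalings (-0.26 and -1.28). The higher share of tags in enriched bins at 24 hpi moves with this peak, and its part in it was not tested.

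The start of Bach1 (chromosome 16, 87699190 to 87733591, plus strand) had 276, 376, 346, 468 and 323 H3K27Ac tags. It was highest at 24 hpi, where the change was 0.75 (0.54 to 0.98), or 1.29 with background scaling, and at 48 hpi the change was 0.22 (-0.01 to 0.46). At the start of Maf (chromosome 8, 118206842 to 118231694, minus strand) the H3K27Ac tags were 2, 5, 4, 1 and 1. H3K4Me1 there had 2, 2, 1, 0 and 0 tags, where 0 tags allow up to 3.69, and H3K27Me3 had 3, 2, 3, 3 and 7. No fold is given for counts this low.

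The order of H3K27Ac at 0 hpi was Nfe2l2, Mafg, Nfe2, Mafk, Bach1 and Maf, and the intervals of Mafg and Nfe2, of Nfe2 and Mafk and of Mafk and Bach1 overlapped. At 48 hpi the order was Nfe2l2, Mafg, Nfe2, Bach1, Mafk and Maf. Mafg overlapped with Nfe2, and Bach1 with Mafk. At 3, 12 and 24 hpi Nfe2 was second, and its interval overlapped neither neighbour.

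Of the 6 starts, 1 (Nfe2) was at least 2-fold higher in H3K27Ac at 3, 12 and 24 hpi and 0 were at 48 hpi. Over all starts the share called higher was 4.24%, 4.37%, 4.72% and 5.33% at these times. With background scaling the counts were 0, 0, 3 (Mafg, Nfe2 and Bach1) and 0, beside 1.86%, 3.19%, 12.4% and 4.43% of all starts. With scaling on enriched bins they were 1, 1, 1 and 2 (Mafg and Nfe2 at 48 hpi), beside 5.0%, 5.32%, 4.8% and 9.5%. So the number of members past 2-fold depended on the scaling and, as given for Mafg and Nfe2, on the window. The starts of 5 genes, all but Maf, were enriched in H3K27Ac at every time, beside 46.3%, 46.8%, 47.1%, 46.8% and 47.2% of all starts at the 5 times. None of the 6 was called lower at any time with any of the 3 scalings, though Maf, with 2 tags at 0 hpi, could not have been. These compare with 1.9%, 3.23%, 8.69% and 9.32% of all starts scaled on total depth. The median change at 48 hpi was 0.03 over the 6 genes, with the low counts of Maf among them, and -0.14 over all starts, enriched or not. Over the 5 enriched genes the middle value was that of Bach1, 0.22.

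**Figure D1:**
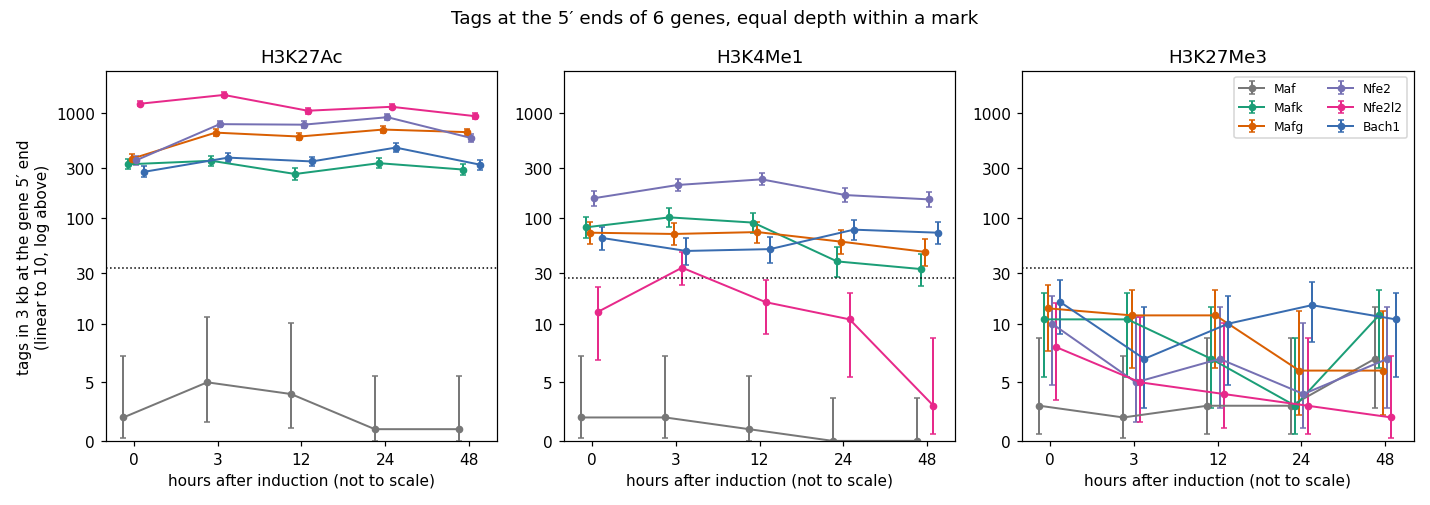
Tags in 3 kb at the gene 5′ end (vertical axis, linear to 10 and logarithmic above) against time after induction for H3K27Ac, H3K4Me1 and H3K27Me3, with exact 95% intervals. Dotted lines mark the enrichment limits of 34, 27 and 34 tags. In H3K27Ac the Nfe2 line goes from 354 to 781 tags by 3 hpi and Nfe2l2 stays highest, while Maf stays at 5 tags or fewer.

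H3K4Me1 at the Nfe2 start had 155, 207, 234, 166 and 151 tags, the highest of the 6 genes at each time and at percentile 99.0 of all starts at 0 hpi. It was highest at 12 hpi, where the change was 0.58 (0.30 to 0.90), or 1.19 with background scaling. At the Mafk start the tags were 82, 102, 91, 39 and 33. The last pair lay below the rest, and the change at 48 hpi was -1.20 (-1.94 to -0.71). It was -0.73 with background scaling, -0.60 in a 2 kb window and -0.64 in a 6 kb window, so the call rests on the window and the scaling. Mafg had 73, 71, 74, 60 and 48 tags, with a change of -0.56 (-1.16 to -0.06). Bach1 had 65, 49, 51, 78 and 73 tags, with a change of 0.16 (-0.33 to 0.67).

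The Nfe2l2 start, the highest in H3K27Ac, had the lowest H3K4Me1 of the 5 marked genes at each time, with 13, 34, 16, 11 and 3 tags. It passed the limit of 27 tags at 3 hpi alone. The change was 1.12 (0.43 to 2.43) at 3 hpi and -1.17 (-4.57 to -0.25) at 48 hpi. The first was 0.97 with scaling on enriched bins, and the second was -0.95 with background scaling. At 3 hpi 1 of 6 starts was called higher in H3K4Me1 (Nfe2l2), beside 1.59% of all starts, and 0 lower, beside 1.68%. With scaling on enriched bins 0 were called higher, beside 0.698%. At 12 and 24 hpi 0 were called, beside 3.2% and 3.1% higher and 4.04% and 6.67% lower. With background scaling 1 was called higher at 12 hpi (Nfe2), beside 14.9%, and with scaling on enriched bins 1 was called lower at 24 hpi (Mafk, -1.06), beside 7.23%. At 48 hpi 0 were called higher, beside 3.38%, and 2 lower (Mafk and Nfe2l2), beside 9.43%. With background scaling 0 were called lower, beside 4.22%. Mafk, Mafg, Nfe2 and Bach1 were enriched in H3K4Me1 at every time, beside 44.9%, 48.0%, 47.3%, 42.8% and 40.6% of all starts.

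H3K27Me3 was not enriched at any of the 6 starts at any time, beside 16.3%, 15.1%, 17.8%, 16.3% and 18.6% of all starts. Mafk had 11, 11, 7, 3 and 12 tags, Mafg 14, 12, 12, 6 and 6, and Nfe2 10, 5, 7, 4 and 7. Nfe2l2 had 8, 5, 4, 3 and 2 tags, and Bach1 16, 7, 10, 15 and 11. By fold alone 1 start (Mafk) was called lower, at 24 hpi, beside 3.77% of all starts, but its interval (-4.36 to 0.05) includes 0, and with background scaling it was not called (-0.97) and 0 were lower, beside 2.72%. No other change from 0 hpi was called in H3K27Me3 at these 6 starts with the 3 scalings. Other windows and 1 added tag gave calls at 48 hpi, which are given in the last section. Some other annotated starts were also called lower by fold, the furthest Mafk-002 at 12 hpi (-1.19, -5.67 to -0.26). It went from 11 to 2 tags. Over all starts 0.77%, 0.859%, 0.564% and 1.53% were called higher at 3, 12, 24 and 48 hpi, and 1.36%, 1.66%, 3.77% and 1.94% lower. At the 6 gene 5′ ends every interval of a change from 0 hpi included 0. From 24 to 48 hpi Mafk went from 3 to 12 tags (1.09, 0.11 to 4.47), still below the enrichment limit.

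**Figure D2:**
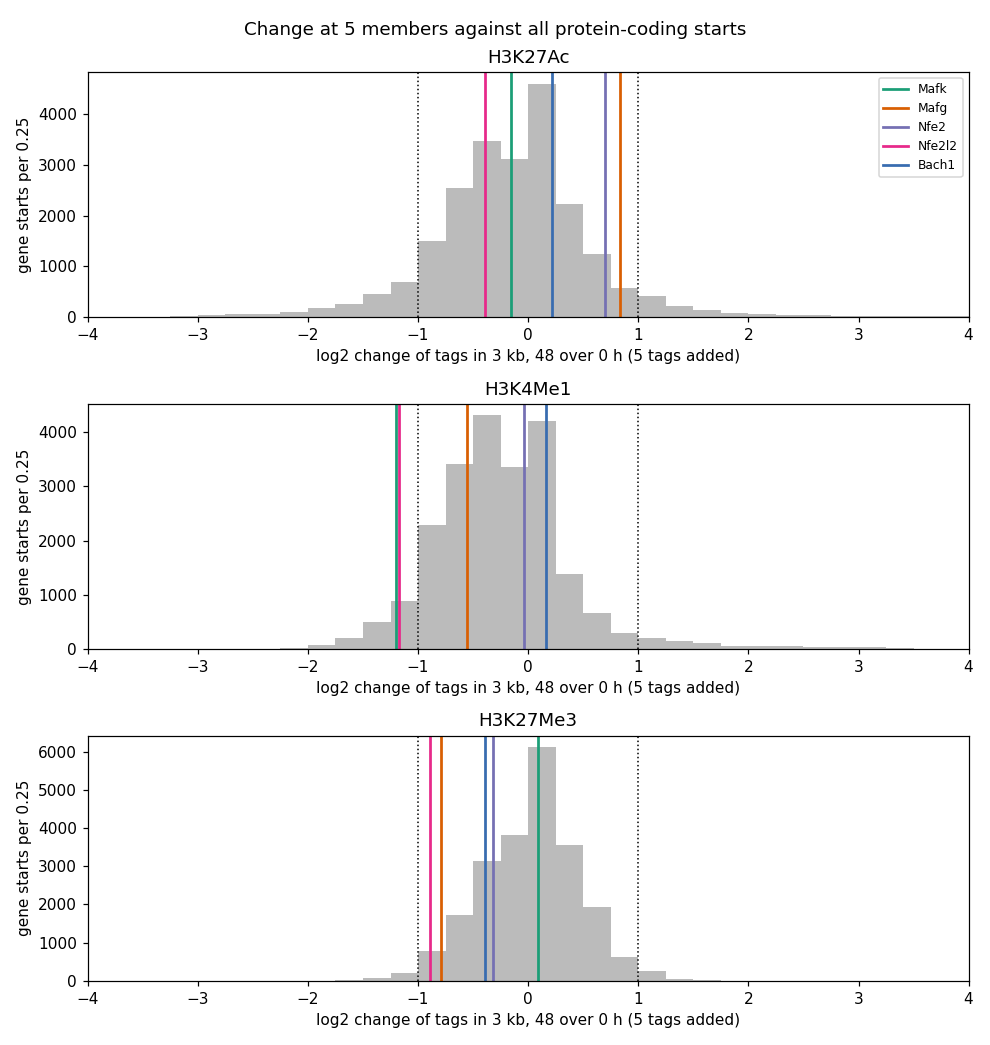
Number of protein-coding starts (vertical axis) by their log2 change from 0 to 48 hpi in bins of 0.25, for the 3 marks, with 5 members as coloured lines and the 2-fold limits dotted. Maf is left out because of its low counts. In H3K27Ac all 5 lines lie inside the limits, and in H3K4Me1 Mafk (-1.20) and Nfe2l2 (-1.17) lie just past the lower limit.

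Several of these genes have more than 1 annotated start, and the choice of start changed what was seen. The windows of starts close together overlap and share tags. No RNA was measured in these data, so which starts are used was not tested. Nfe2 has 10 annotated starts, and from 0 to 48 hpi 9 of them were at least 2-fold higher in H3K27Ac, all but the 5′ end. Over the 70018 annotated starts of all protein-coding genes, whose windows overlap in the same way, 8.87% were at least 2-fold higher and 8.9% lower. At the Nfe2-001 start, 2964 bp downstream, the tags were 81, 289, 476, 515 and 323, with a change of 1.93 (1.64 to 2.37). At the Nfe2-007 start, 5251 bp downstream, they were 18, 67, 244, 346 and 333, with a change of 3.88 (3.53 to 4.98). This start was below the enrichment limit at 0 hpi and reached its high level by 24 hpi. H3K4Me1 was already there at 0 hpi, with 88, 140, 217, 177 and 112 tags. H3K27Me3 there had 26, 23, 22, 10 and 23 tags, below the limit throughout, with a change of -1.05 (-2.60 to -0.28) at 24 hpi. By 3 hpi H3K27Ac had risen both at the 5′ end (1.13) and at these internal starts, by 1.77 (1.47 to 2.21) at Nfe2-001 and 1.65 (1.13 to 2.73) at Nfe2-007. At 3 hpi the 5′ end had 781 tags and 909 at 24 hpi, while Nfe2-007 had 67 and 346, so more of its rise came after 3 hpi.

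At Mafg 3 of 5 starts were at least 2-fold higher at 48 hpi, beside 8.87% of all annotated starts. At the Mafg-004 start, 2803 bp downstream of the 5′ end, H3K27Ac had 343, 1220, 1432, 1635 and 1443 tags. The change was 1.82 (1.66 to 2.01) at 3 hpi and 2.06 (1.90 to 2.25) at 48 hpi, and it stayed past 2-fold at both times in each alternative run. H3K4Me1 at this start went the other way, with 310, 295, 92, 79 and 76 tags and a change of -1.96 (-2.41 to -1.66). It was at its first level at 3 hpi, when H3K27Ac was already high, and fell between 3 and 12 hpi.

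At Mafk 1 of 3 starts was at least 2-fold higher, beside the same 8.87%. At the Mafk-002 start, 6001 bp downstream, H3K27Ac had 13, 18, 41, 47 and 90 tags, with a change of 2.40 (1.95 to 3.76). It passed the enrichment limit from 12 hpi on and was highest at 48 hpi. H3K4Me1 rose at the same start, with 44, 22, 51, 96 and 108 tags and a change of 1.21 (0.78 to 1.84). Maf and Nfe2l2 have 2 starts each and Bach1 has 3, and none of these was called in H3K27Ac.

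**Figure D3:**
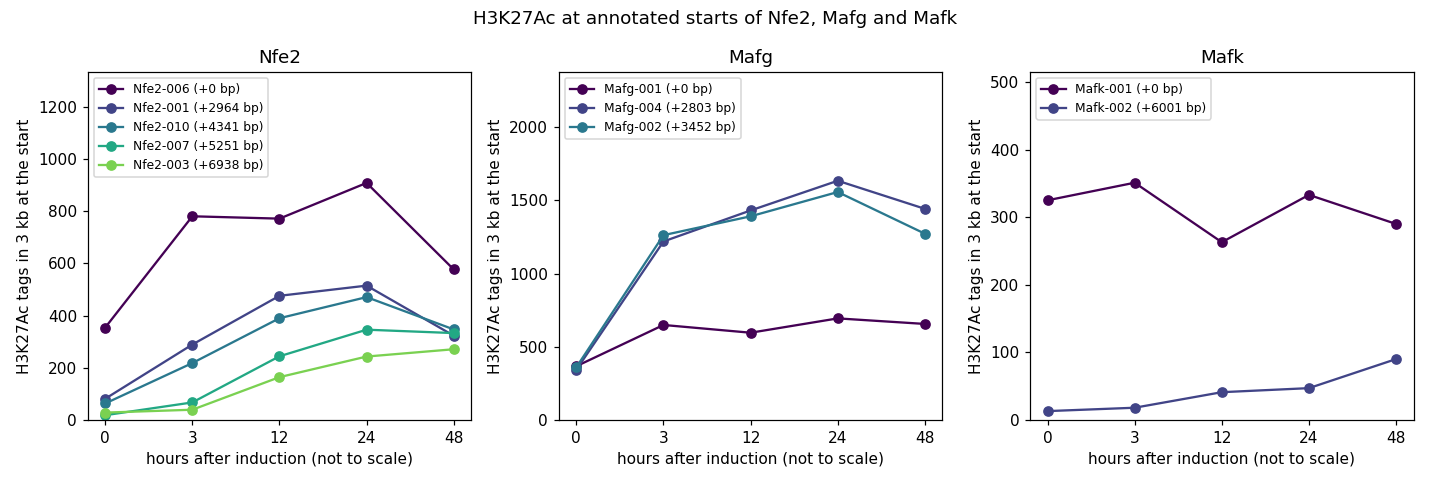
H3K27Ac tags in 3 kb (vertical axis) at annotated starts of Nfe2, Mafg and Mafk against time after induction, with the distance of each start from the gene 5′ end in the legend. The internal starts of Nfe2 begin at 18 to 81 tags and rise, Mafg-004 goes from 343 to 1220 tags by 3 hpi, and Mafk-002 reaches 90 tags at 48 hpi while the Mafk 5′ end does not rise.

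Over each gene and 50 kb on either side, 3 kb windows of a fixed grid were counted, 246 windows in all for the 6 genes. H3K27Ac was enriched at 0 or 48 hpi in 123 of them. Of these 55 (44.7%) were at least 2-fold higher at 48 hpi, beside 38.3% of all enriched windows of the genome, and 11 (8.94%) were lower, beside 19.3%. With scaling on enriched bins 71 of 131 (54.2%) were higher, beside 49.5%, and 6 (4.58%) lower, beside 11.3%. With background scaling 45 of 116 (38.8%) were higher, beside 35.6%, and 11 (9.48%) lower, beside 21.5%. The shares differed between the loci. Higher and lower windows numbered 15 and 0 of 31 at Nfe2, 17 and 2 of 33 at Nfe2l2, 11 and 2 of 29 at Mafg, 9 and 5 of 20 at Bach1, and 3 and 2 of 10 at Mafk. Of the 55 higher windows, 31 (56.4%) were already enriched in H3K4Me1 at 0 hpi, beside 40.0% over the genome. Neighbouring windows share a library and a region and are not replicates.

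H3K4Me1 was enriched in 132 windows, of which 34 (25.8%) were higher, beside 28.4% over the genome, and 10 (7.58%) were lower, beside 12.7%. With background scaling 56 of 141 (39.7%) were higher, beside 41.1%, and 4 (2.84%) lower, beside 4.51%. H3K27Me3 was enriched in 40 windows, and 0 were called higher or lower, beside 2.63% and 0.65%. These windows lay upstream of Mafg near Notum (6), on both sides of Nfe2l2 but mostly upstream (8), downstream of Bach1 (14) and on both sides of Mafk (12). The Nfe2 locus had none at 0 or 48 hpi. None of the 43 windows at Maf was enriched in any mark at any time. Over the genome, at the 5 times, 6.32%, 6.45%, 7.38%, 7.68% and 9.28% of mappable windows were enriched in H3K27Ac. For H3K4Me1 these shares were 10.3%, 10.3%, 10.4%, 11.5% and 12.2%, and for H3K27Me3 14.0%, 13.9%, 14.6%, 15.5% and 15.5%. The Maf level over the locus was 0.548 of the genome mean in H3K27Me3 at 0 hpi and 0.468 at 48 hpi, with 0.193 and 0.159 in H3K27Ac.

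**Figure D4:**
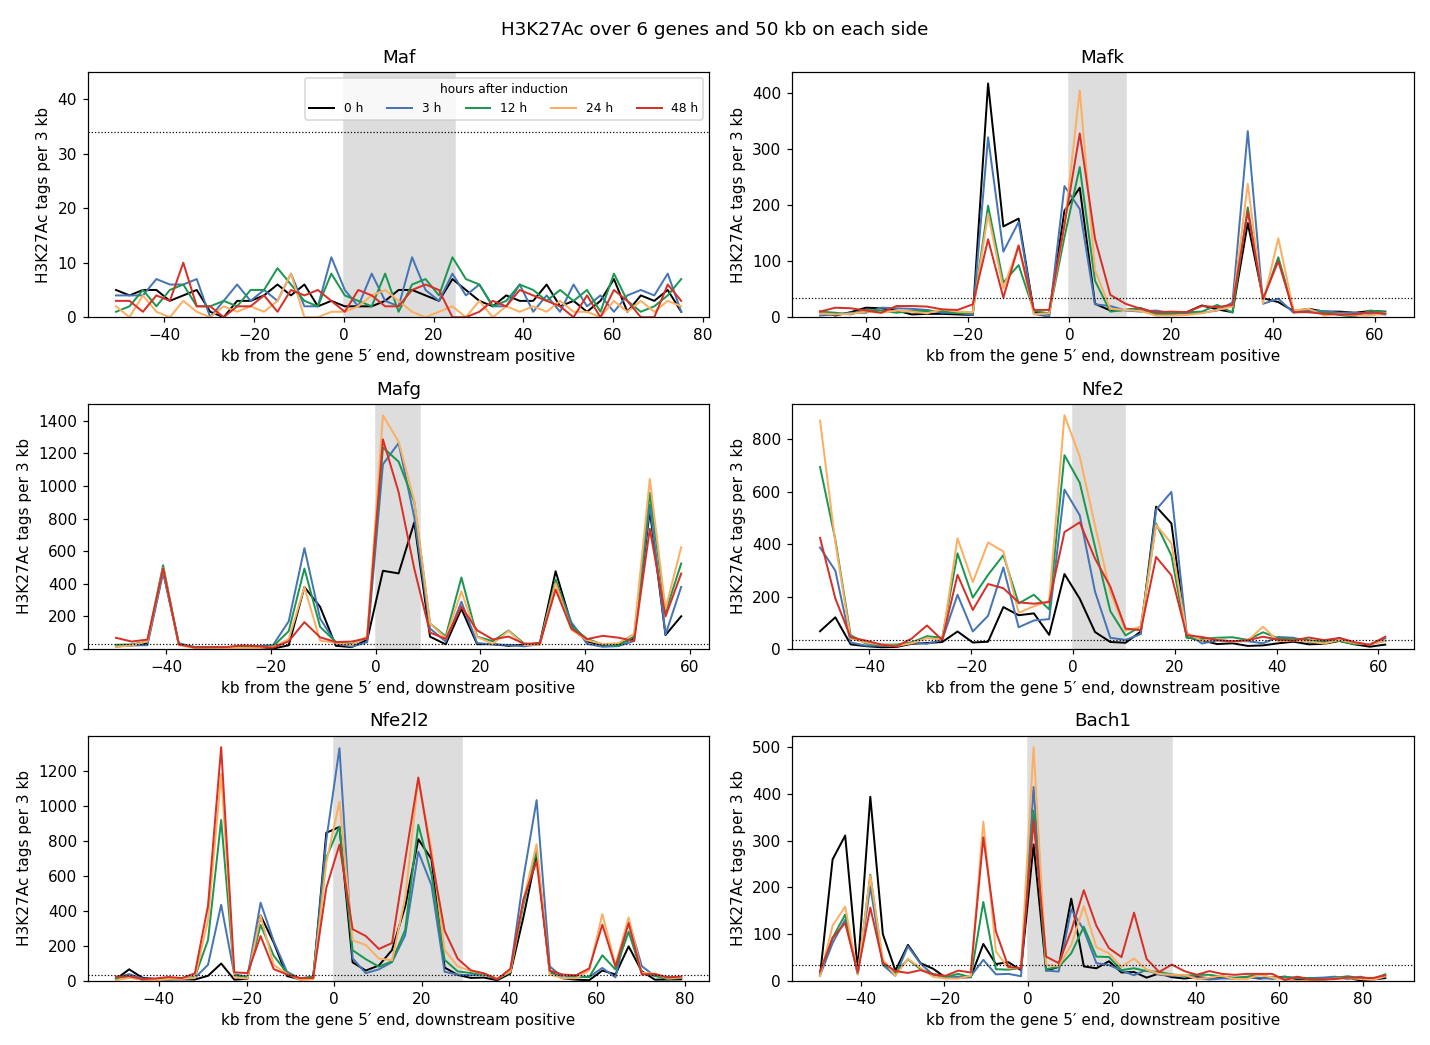
H3K27Ac tags per 3 kb window (vertical axis, its range set per panel) against distance from the gene 5′ end in kb, downstream positive, at the 5 times, with the gene body shaded and the limit of 34 tags dotted. The tallest gain lies upstream of Nfe2l2, where the tags go from 99 to 1333, the Bach1 windows far upstream fall, the highest from 394 to 157 tags, and Maf stays at 11 tags or fewer per window.

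Among the grid windows of the 6 loci, the largest gain was upstream of Nfe2l2. By fold, the window centred on the Nfe2-007 start, given above, gained more (3.88). The window from 75567001 to 75570000 on chromosome 2, centred at -25803 bp from the start, had 99, 434, 918, 1180 and 1333 H3K27Ac tags. The change was 3.69 (3.46 to 4.06), and at 48 hpi this window stood above the Nfe2l2 start. H3K4Me1 there had 116, 231, 425, 356 and 340 tags, and H3K27Me3 had 23, 17, 8, 8 and 6. The window holds the start of the noncoding gene Gm13656, so the gain cannot be assigned to Nfe2l2. The next window upstream, named after its values were seen, had 29, 92, 233, 346 and 429 tags. The window highest at 0 hpi, centred at 1197 bp and so at the Nfe2l2 start, had 878, 1327, 880, 1022 and 777 tags. The largest fall at this locus was in the window centred at -13803 bp, with 218, 226, 144, 91 and 67 tags (-1.63, -2.12 to -1.30). A window inside the gene, centred at 19197 bp and also named after its values were seen, holds a U6 RNA copy and had 808, 737, 890, 1150 and 1160 tags, short of 2-fold (0.52, 0.39 to 0.65).

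At Nfe2 the grid window of largest gain lay in an intron of Copz1, the next gene upstream. Copz1 is a subunit of the COPI coat of Golgi vesicles. Off this grid, the window centred on the Nfe2-007 start inside Nfe2 gained more (3.88, 3.53 to 4.98). The window centred at -16667 bp had 28, 127, 283, 406 and 248 tags (2.94, 2.58 to 3.77). H3K4Me1 there had 60, 99, 123, 74 and 75 tags. Toward the end of the Nfe2 gene, the window centred at 7333 bp had 27, 43, 145, 219 and 238 tags. Its gain was of like size (2.92, 2.56 to 3.77). Farther away, the window centred at -49667 bp, which overlaps an exon of Gpr84, a fatty acid receptor of myeloid cells, had 68, 387, 694, 871 and 424 tags (2.56). Both of these were named after their values were seen. The largest fall was -0.76 (-0.99 to -0.55) in the window that holds the starts of both Cbx5 and Hnrnpa1, with 479, 599, 357, 403 and 281 tags, so 0 windows at this locus were called lower. The window highest at 0 hpi, centred at 16333 bp in Hnrnpa1, an RNA-binding protein gene, had 543, 531, 478, 473 and 351 tags. The window highest at 48 hpi was in Nfe2 itself, centred at 1333 bp, with 192, 510, 634, 734 and 483 tags (1.31, 1.09 to 1.58).

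At Bach1 gains and losses lay in separate places. The largest gain was inside the gene in the window centred at 25311 bp, with 19, 12, 27, 48 and 146 tags (2.65, 2.25 to 3.71). It was below the enrichment limit until 24 hpi, and H3K4Me1 rose with it, with 19, 16, 32, 70 and 158 tags (2.76). An earlier gain in the gene, at 13311 bp, had 31, 109, 116, 160 and 194 tags (2.47). Upstream, the window at -10689 bp had 79, 45, 169, 341 and 307 tags (1.89, 1.60 to 2.33). A block farther upstream fell by 3 hpi. Its highest window, centred at -37689 bp, had 394, 202, 227, 225 and 157 tags (-1.30, -1.60 to -1.06), and that at -46689 bp had 260, 81, 92, 118 and 92. H3K4Me1 in the first of these was 64, 90, 53, 52 and 51 and did not pass 2-fold. The windows at 13311, -10689 and -46689 bp were named after their values were seen. The window highest at 48 hpi was at the Bach1 start, centred at 1311 bp, with 292, 415, 364, 500 and 344 tags. The largest fall by fold was at -28689 bp, with 77, 74, 46, 47 and 17 tags (-1.90, -3.03 to -1.41).

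At Mafg the highest window at 48 hpi lay in the gene, centred at 1413 bp, with 480, 1133, 1236, 1433 and 1286 tags (1.41, 1.27 to 1.58). It holds Mafg-004 and shows the same opposite course in H3K4Me1, with 206, 179, 48, 56 and 54 tags (-1.84). The largest fall was at the start of Pycr1, an enzyme of proline synthesis, at -10587 bp, with 259, 187, 136, 52 and 72 tags (-1.78, -2.24 to -1.47). Among grid windows the largest gain by fold was within Aspscr1 at -49587 bp, with 16, 17, 26, 14 and 69 tags (1.82, 1.31 to 2.99). It was enriched at 48 hpi alone, and a window in Pcyt2 at 19413 bp had a like gain (1.78, 1.35 to 2.57). Off the grid, the window centred on the Mafg-004 start gained more (2.06, 1.90 to 2.25). The window highest at 0 hpi was at the start of Arhgdia, centred at 52413 bp, with 849, 885, 958, 1043 and 737 tags.

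At Mafk the grid window of largest gain was in the gene, centred at 5034 bp, with 24, 23, 65, 84 and 140 tags (2.32, 1.91 to 3.23). It holds the Mafk-002 start. The largest fall was at -12966 bp, with 162, 117, 62, 51 and 35 tags (-2.06, -2.78 to -1.68). The window beside it holds the start of Ints1, an Integrator subunit, and fell from 417 to 139 tags. It was the highest window at 0 hpi, and at 48 hpi the highest was in Mafk, centred at 2034 bp, with 231, 193, 268, 405 and 328 tags (0.50, 0.26 to 0.75).

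The sequences below are 300 base pieces from the grid windows of largest gain by fold at Nfe2l2 (chr2:75569701-75570000), Bach1 (chr16:87724801-87725100) and Mafg (chr11:120543901-120544200). They are the pieces with the most H3K27Ac tags at 48 hpi, all in mm9 and on the plus strand. None of them overlaps an annotated exon. They show the letters at these gains, with the same motifs in capitals.
Nfe2l2 piece: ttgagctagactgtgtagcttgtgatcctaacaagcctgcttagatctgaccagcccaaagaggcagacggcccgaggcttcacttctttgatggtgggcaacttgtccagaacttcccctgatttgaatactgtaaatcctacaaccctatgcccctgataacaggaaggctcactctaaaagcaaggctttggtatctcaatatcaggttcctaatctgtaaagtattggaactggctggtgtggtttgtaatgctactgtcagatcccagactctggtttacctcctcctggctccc
Bach1 piece: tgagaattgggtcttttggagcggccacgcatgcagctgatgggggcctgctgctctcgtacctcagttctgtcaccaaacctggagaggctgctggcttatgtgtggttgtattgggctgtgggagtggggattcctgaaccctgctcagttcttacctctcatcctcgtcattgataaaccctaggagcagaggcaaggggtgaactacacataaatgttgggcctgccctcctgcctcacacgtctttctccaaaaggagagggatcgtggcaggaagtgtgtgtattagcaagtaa
Mafg piece: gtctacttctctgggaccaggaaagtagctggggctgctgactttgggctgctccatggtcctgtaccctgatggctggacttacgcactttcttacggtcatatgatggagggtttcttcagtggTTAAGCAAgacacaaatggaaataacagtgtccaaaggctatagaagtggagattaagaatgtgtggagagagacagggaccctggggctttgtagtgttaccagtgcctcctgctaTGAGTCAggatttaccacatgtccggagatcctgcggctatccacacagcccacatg

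The Nfe2l2 piece had 21 H3K27Ac tags at 0 hpi and 203 at 48 hpi, the Bach1 piece 2 and 41, and the Mafg piece 2 and 13. The Mafg piece held a C/EBP match at its base 127 and an AP-1 match at base 244. The pieces of Nfe2l2 and Bach1, and those of Nfe2 and Mafk that are not shown, held none of the 4 motifs. Over the highest pieces of 87673 enriched windows, 10.8% held C/EBP, 14.0% PU.1, 6.82% AP-1 and 12.1% the Maf and Nfe2 core. The absence of a match says only that these letters are not in the piece.

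Among 8 relatives and regulators of the 6 genes, H3K27Ac at the start was at least 2-fold higher at 48 hpi in 1, lower in 2 and changed less in 5, with a median change of -0.43. Over all starts 5.33% were higher and 9.32% lower, and the median was -0.14. Maff, the third small Maf gene, had 232, 305, 375, 538 and 531 tags (1.18, 0.97 to 1.42). Bach2, a repressor expressed in B lineage cells, had 515, 358, 186, 166 and 87 tags (-2.50, -2.91 to -2.24). Keap1, the adaptor that holds Nrf2 for degradation, had 776, 713, 565, 546 and 337 tags (-1.19, -1.39 to -1.02), which was no longer called with scaling on enriched bins. So Bach1 and Bach2 had unlike courses. H3K4Me1 was also called lower at Bach2 (-1.61) and Keap1 (-1.11), beside 9.43% of all starts, and with background scaling at Bach2 alone, beside 4.22%.

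Among 24 genes known as targets of Nrf2 and Bach1, 6 were at least 2-fold higher in H3K27Ac at 48 hpi, 0 were lower and 18 changed less, beside 5.33% higher and 9.32% lower over all starts. Their median change was 0.55, beside -0.14 over all starts. All starts include unmarked ones, and 46.3% of them were enriched in H3K27Ac at 0 hpi. The gene lists were chosen with earlier results of these data known, so these shares are a description only. With scaling on enriched bins 12 were higher, beside 9.5% of all starts, and with background scaling 5, beside 4.43%, with medians of 0.96 and 0.46. Srxn1, which repairs peroxiredoxins, had 8, 32, 12, 27 and 67 tags (2.47, 2.01 to 4.34). Nqo1, a quinone reductase, had 18, 79, 98, 37 and 113 tags (2.36, 1.93 to 3.46). Both had risen by 3 hpi, and neither rose evenly over the times. Taldo1, an enzyme of the pentose phosphate pathway, had 210, 355, 325, 606 and 596 tags (1.48). Slc7a11, the cystine transporter, had 66, 11, 111, 203 and 185 tags (1.42), so it fell at 3 hpi before it rose. The others past 2-fold were Blvrb (1.33) and Abcc1 (1.08). In H3K4Me1 0 of the 24 were higher and 2 were lower, Txn1 and G6pdx, beside 3.38% and 9.43% of all starts. With background scaling 3 were higher and 1 lower, beside 6.77% and 4.22%.

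Among 7 genes known as targets of c-Maf in macrophages, 1 was higher, 0 were lower and 6 changed less in H3K27Ac, with a median of 0.19, beside 5.33% higher and 9.32% lower over all starts. The one was Il10, with 5, 4, 8, 17 and 23 tags (1.49, 0.77 to 3.95), which stayed below the enrichment limit. H3K4Me1 at Il10 had 26, 29, 42, 55 and 68 tags (1.24), while H3K27Me3 had 92, 84, 88, 87 and 97 and was enriched throughout. The starts of C1qa, C1qb and C1qc held 6 H3K27Ac tags or fewer at all times. Of 4 genes known as targets of Nfe2 (Tubb1, Tbxas1, Hbb-b1 and Hba-a1) 0 were called in H3K27Ac, beside the same shares of all starts. Tbxas1, thromboxane synthase, was marked at 485, 555, 398, 522 and 459 tags, and the others had 8 tags or fewer. The globin genes have near-identical copies, and unique alignment can leave out reads there.

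**Figure D5:**
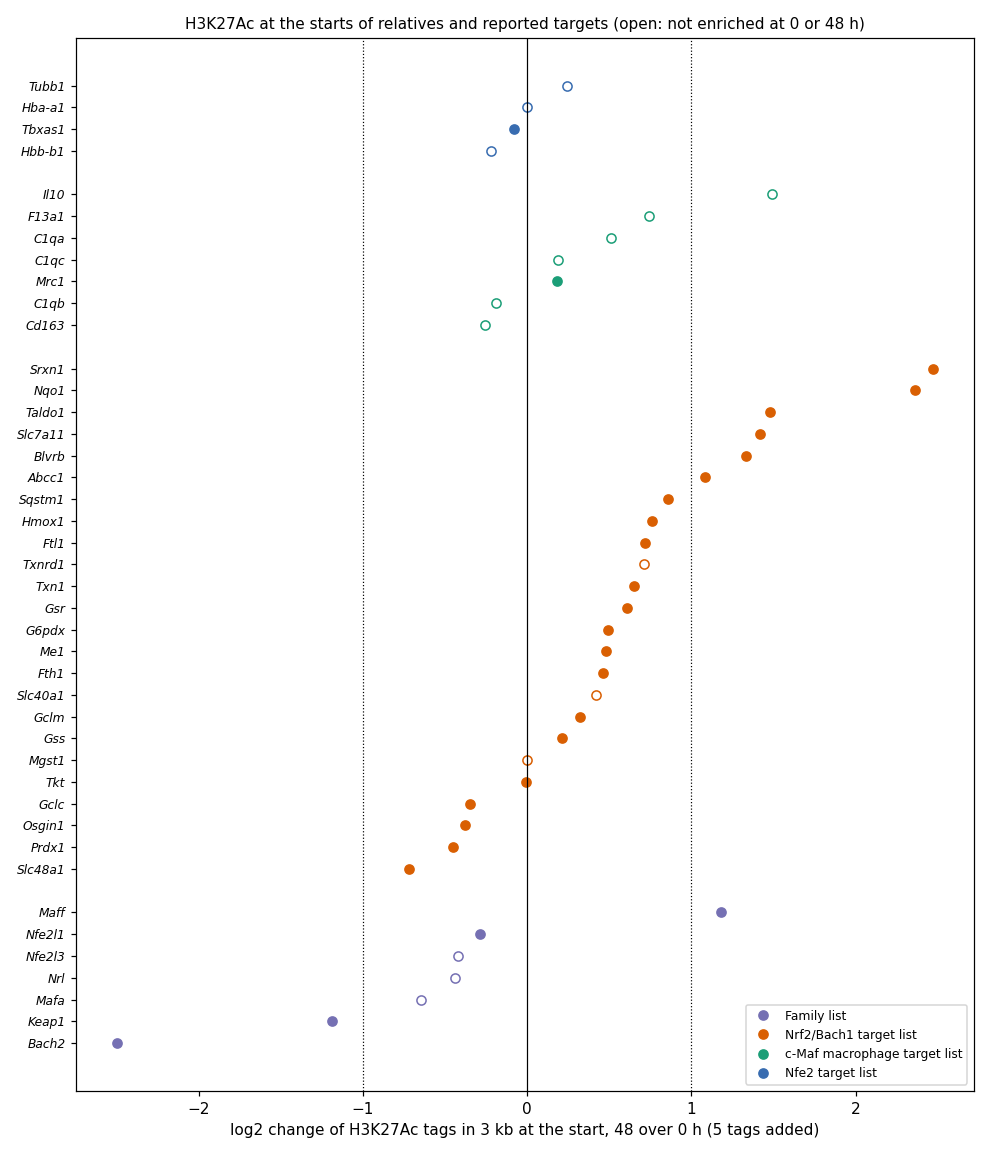
Log2 change in H3K27Ac tags at the start from 0 to 48 hpi (horizontal axis) for the genes shown of the 4 lists, with 2-fold limits dotted and open circles for starts enriched at neither time. In the Nrf2 and Bach1 target list 6 genes lie past the upper limit and 0 past the lower, and in the family list Bach2 is the lowest at -2.50.

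The protein-coding genes whose starts were most like those of the members over the 15 libraries were found by the Euclidean distance of log2 levels. For Nfe2l2 they were Trib1 (1.18), Brd2 (1.32) and Jun (1.34), and for Mafg Selk (0.62), Dusp1 (0.88) and Mapkapk2 (0.97). For Nfe2 they were Fut11 (1.22), Abcb8 (1.27) and Gm10643 (1.29). For Bach1 they were Commd1 (1.01), Pldn (1.08) and Smarcad1 (1.09), and for Mafk Rbm22 (1.01), Hook2 (1.06) and Akap8l (1.07). The unmarked Maf start was closest to Adamts19 (0.82), Esrrg (0.85) and Pet2 (0.90). The median distance of all starts from a member ran from 8.73 for Maf to 13.78 for Nfe2l2.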

How the data were processed

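The deposited files hold the positions of aligned 36 bp tags without strand, with no other score, signal or count. The authors mapped reads to mm9 by Eland or by Bowtie without mismatches, kept uniquely placed tags and removed identical ones. The submitters' processing notes name Bowtie alone. The annotation was GENCODE vM1 on NCBIM37, which is mm9, and 0 of 207342505 tags fell in bins without a known base.

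Here 1 tag per position was kept, because the files differed in how many tags a position could hold. Each library was then thinned at random to the smallest of its mark, which left 15.22 M (H3K27Ac), 10.91 M (H3K4Me1) and 15.34 M (H3K27Me3) tags. A tag was placed at its middle, 18 bp from its first base, and counted on chromosomes 1 to 19 and X. Keeping 1 tag per position compresses the highest windows. Groups were taken from the labels. Counting steps were tested on simulated data. Counts and intervals were made in Python 3.11.15 with numpy 2.4.6 and scipy 1.17.1.

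The members, gene lists and motifs were chosen with earlier results of these data known. All 6 members are given. From each list up to 4 genes past 2-fold with the largest change are named, and per locus the windows of largest gain and fall and of highest level at 0 and 48 hpi, and the other genes and windows were named after their values were seen. Among the family genes, 1 counted with its list is not reported here. The 3 genes most like a member leave out starts within 10 kb of it. Alternatives were another thinning, no thinning, tags as deposited, scaling on enriched or background bins, and windows of 2, 5 or 6 kb. Others were 1 tag added in place of 5, the start of most coding transcripts, a shifted grid and a stricter enrichment limit. That start was the gene 5′ end itself at all 6 genes, so its values could not move.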

Additional observations from a re-analysis of the deposited data

How the results depend on the processing

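No paired analysis was possible because no group held more than 1 library, and leaving out a replicate was not possible for the same reason. Of 789 values under 12 alternatives, 692 moved by less than the counting interval (counts by less than 1.5 times), 97 moved more and 0 changed sign after being called. Among the 692 are those of the alternative start, which was the gene 5′ end itself and could not move. From 0 to 48 hpi, bins enriched at all 5 times shift H3K27Ac changes by 0.42 and background bins by -0.09, and in H3K4Me1 by 0.07 and 0.53. Members at least 2-fold higher in H3K27Ac at 48 hpi numbered 2 (Mafg and Nfe2) with scaling on enriched bins (9.5% of all starts) and 1 with a 6 kb window (6.59%), against 0 (5.33%). Members lower in H3K4Me1 numbered 0 with background scaling (4.22%) and 1 each with 2 kb (9.73%) and 6 kb windows (2452 of 22350 starts), against 2 (9.43%). Members lower in H3K27Me3 numbered 1 each with 2 kb (2.04%) and 6 kb windows (1.19%) and 2 with 1 tag added (7.49%), against 0 (1.94%), and with 1 tag added 1 was higher (5.81%), against 0 (1.53%). Windows lower in H3K27Ac numbered 6 with scaling on enriched bins (11.3% over the genome), against 11 (19.3%). In H3K4Me1, 56 windows were higher (41.1%) and 4 lower (4.51%) with background scaling, against 34 (28.4%) and 10 (12.7%). The cause was not tested. The shares of all starts, the gene lists under other scalings, the counts of members under them at each time and the internal starts of Nfe2, Mafg and Mafk were added after the data were seen.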
